A study of Komagataella phaffii CBS 7435 with 16 samples.

Results

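The comparison covers 8 of the 16 deposited RNA-seq libraries of the methylotrophic yeast Komagataella phaffii. It sets the 4 libraries titled 0% oxygen at 5 volume changes (the late group) against the 4 titled 0% oxygen at 0.4 volume changes (the early group). The members were taken from the sample titles alone, and every feature of the abundance tables was used. All 16 libraries came from the wild-type strain CBS7435, grown in glucose-limited chemostats at 25 °C and pH 5.5 with a dilution rate of 0.075 per h. No transgene is named for them. The 8 other libraries are 4 at 30% oxygen and 5 volume changes and 4 at 0% oxygen and 4 volume changes. They entered the filter, the scaling and the shared estimate of the spread. Their levels and comparisons are otherwise set side by side.

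The titles and the protocol describe oxygen differently. Where the titles give 0% oxygen at 0.4, 4 and 5 volume changes, the protocol gives 5, 50 and 70 h after inlet air was switched to 8% oxygen. For the 30% group it gives 66 h at 21% inlet oxygen. The reactors were of a smaller or a larger model, and the labels do not tie them to samples. The labels call the replicates biological but do not say whether each number was a separate reactor, so p-values measure the spread between these libraries. The comparison therefore asks how the transcript pool moved between an early and a late sampling under low oxygen, with time in the reactor and time at low oxygen changing together.

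As background, a chemostat feeds medium at a fixed rate and removes broth at the same rate, and a volume change is the replacement of the working volume. Shortly after a disturbance the culture still contains cells and medium from before it, and after several volume changes these have largely been washed out. Komagataella phaffii respires sugar when air is ample. Under oxygen shortage it also ferments, and the syntheses of sterols, unsaturated fatty acids and heme, which use oxygen as a substrate, are known to be affected.

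Estimated counts per library ran from 23085262 to 40549356 in these 8 libraries. The identifiers end in t (5378 features, with coding lengths) or r (186 features), and the tables give no gene names for them. Functions and pathways are therefore not reported, and neither strain nor oxygen state was checked against marker genes. Of the 5564 features, 5452 passed the filter on low counts.

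In the late group 745 features were higher and 822 were lower than in the early group, 1567 in all (28.7% of 5452 tested; 13.7% higher and 15.1% lower). A feature was called at an adjusted p under 0.05 in edgeR's quasi-likelihood test. At least 2-fold, 109 features rose (2% of those tested) and 97 fell (1.78%). Of the 109, 97 were nuclear coding features. The others were 8 long and 4 short nuclear r features, both described below. Most changes were modest. The median log2 fold change was 0.52 among features called higher and -0.50 among those called lower, against 0.00 for all features tested. Among those called higher, 435 changed by less than 1.5-fold, 201 by 1.5- to 2-fold, 89 by 2- to 4-fold and 20 by at least 4-fold. Among those called lower, these numbers were 498, 227, 84 and 13. Long nuclear r features, with a median log2 fold change of 7.75 over the 8, were among the 20, except that of 6508 nt, at 1.66. Of these 8, 4 had the same counts as each other, and all 8 were highest in replicate 4 of the late group.

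The groups separated cleanly in many features. Over all features tested, 807 (14.8%) had all 4 late values above all 4 early values, and 907 (16.6%) had all 4 below. Of the called features, 632 of the 745 higher and 752 of the 822 lower had groups that did not overlap. The split of directions depended on scaling: 47.5% of called features were higher with TMM factors, against 57.8% after upper-quartile scaling and 59.7% when the deposited TPM values were tested instead. The median log2 fold change of all features was 0.05 with the former and 0.06 with the latter. The calls are relative to the sequenced pool, so a rise of some transcripts and a fall of the rest cannot be told apart.

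**Figure D1:**
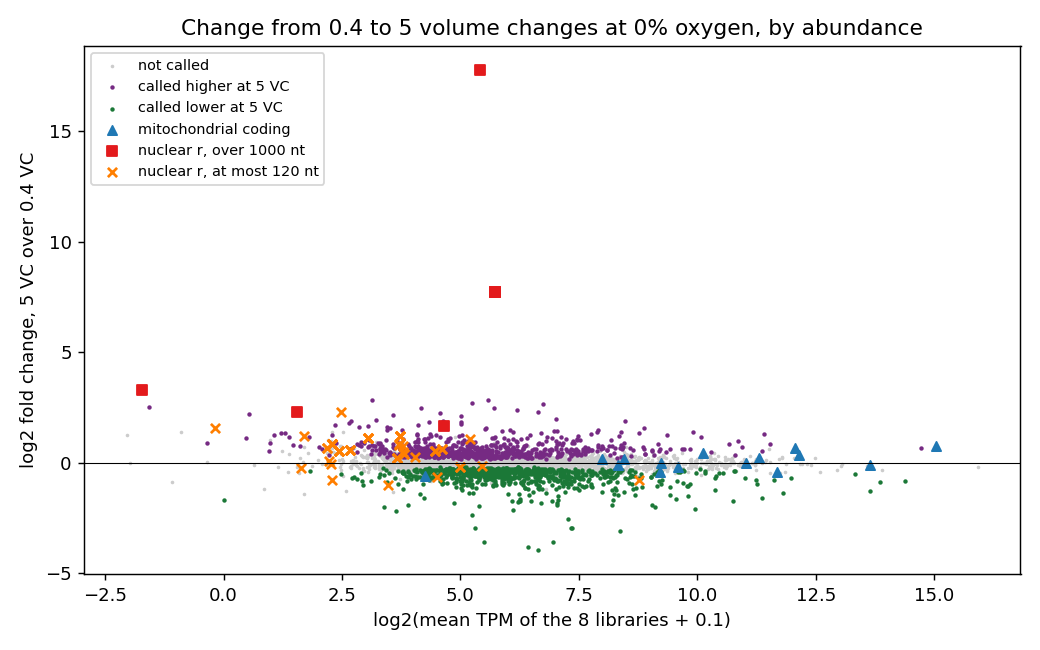
Each point is 1 of the 5452 tested features; the x axis is log2 of the mean TPM of the 8 libraries plus 0.1, and the y axis is the log2 fold change, late over early group. Coding features lie between -3.95 and 2.86, while the 8 nuclear r features over 1000 nt (red squares, 4 of them on the same spot) lie between 1.66 and 17.8; the highest has no early count, so its value depends on the prior count.

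The largest rise of any coding feature was that of PP7435_Chr1-1341.t01 (chromosome 1, 2112 coding nt). Its values in the early group were 35.2, 36.4, 32.0 and 42.7 CPM (counts scaled to the library total with TMM factors) in replicates 1 to 4. In the late group they were 302, 262, 266 and 234 CPM. Every late library lay above every early library, which the choice of the named features required. The mean went from 36.6 ± 4.5 to 266 ± 28.2 CPM (SD, n = 4), a 7.27-fold rise. The log2 fold change was 2.86 ± 0.11 (SE), with an adjusted p of 6.5e-12 in edgeR's quasi-likelihood test. The late level stayed below that at 30% oxygen, where the libraries ran from 598 to 638 CPM, and overlapped with that at 4 volume changes (253 to 320 CPM).

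Among features called higher with groups that did not overlap, PP7435_Chr3-1213.t01 gained the most counts. It lies on chromosome 3 and has 1764 coding nt. The 4 early libraries held 3307, 2746, 3748 and 3270.4 CPM. The late libraries held 7862, 5050.1, 5453 and 7239 CPM, so replicates 1 and 4 were high and replicates 2 and 3 lower, all above the early group. The means were 3268 ± 410.2 and 6401 ± 1361 CPM (SD, n = 4). The log2 fold change was 0.97 ± 0.19 (SE), with an adjusted p of 0.000636 in edgeR's test. At 30% oxygen its libraries ran from 8328 to 9569 CPM, above all 4 late libraries. At 4 volume changes they ran from 4295 to 7637 CPM and overlapped with the late group.

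The largest fall of any tested feature was that of PP7435_Chr3-1699.t01 (chromosome 3, 1131 coding nt). Its early values were 313, 295, 261 and 300.1 CPM, and its late values were 18.2, 23.4, 19.2 and 15.0 CPM. Every late library lay below every early library, again as the choice required. The mean fell from 292 ± 22.4 to 19.0 ± 3.5 CPM (SD, n = 4), a level 15.4-fold lower. The log2 fold change was -3.95 ± 0.16 (SE), with an adjusted p of 7.27e-12 in edgeR's test. Its level at 30% oxygen, 1631 to 2662 CPM, was higher still than in the early group, and at 4 volume changes it was 19.5 to 23.9 CPM. The late group was thus the far end of a fall, in which 4 and 5 volume changes overlapped.

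Among coding features called lower with groups that did not overlap, that with the largest loss of counts went the other way relative to 30% oxygen. PP7435_Chr1-1374.t01 (chromosome 1, 1614 coding nt) held 12766, 12516, 12325 and 11795 CPM in the early libraries. The late libraries held 4349.7, 5510.0, 4862 and 4321 CPM, and the groups did not overlap, as the choice required. The mean fell from 12351 ± 412 to 4761 ± 558 CPM (SD, n = 4), 2.59-fold lower, with a log2 fold change of -1.38 ± 0.16 (SE) and an adjusted p of 3.46e-06 in edgeR's test. At 30% oxygen it stood at 2353 to 3872 CPM, below every late library. The early libraries therefore held its highest values among the 16.

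**Figure D2:**
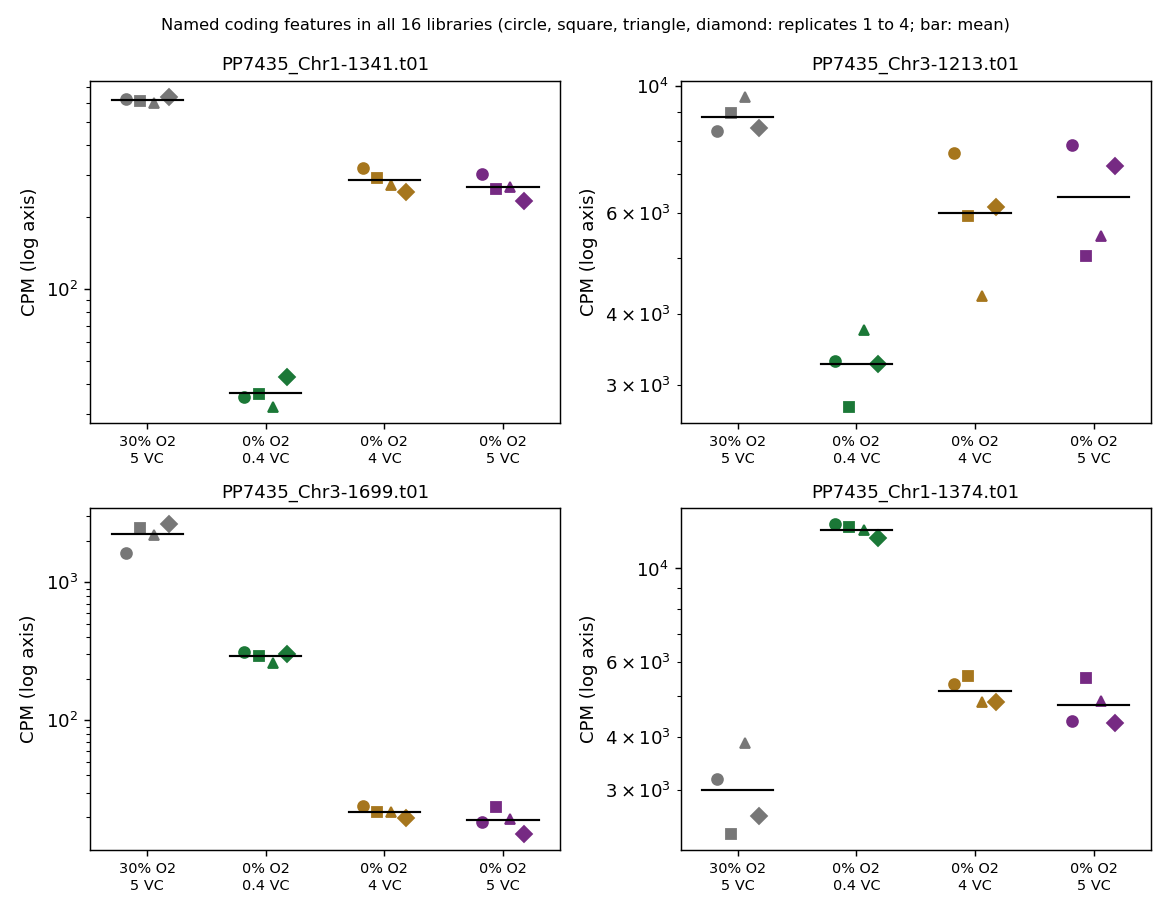
Each panel shows 1 named feature, with CPM on a log axis against the 4 groups; markers are the 4 libraries of a group and the bar is their mean. In all 4 panels the libraries at 4 and 5 volume changes overlap, and both stand apart from the libraries at 0.4 volume changes. For the libraries at 5 volume changes, the choice of the features required this.

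Together the called features made up a considerable part of the pool. The 745 features called higher held 7.77 ± 0.0323% of counts in the early group and 13.2 ± 0.610% in the late group (SD, n = 4). The 822 called lower held 25.2 ± 0.196% and 16.4 ± 0.439%. Since these sets were chosen from those libraries, the 2 pairs of values only describe them. The libraries of the other groups are not in the contrast that chose the sets, although they entered the filter and the shared estimate of the spread. Gaps between the early share and those of the other groups still depend on the choice, since the early libraries made it. At 30% oxygen the features called higher held 13.2 ± 0.0458% of counts, close to their late share, and at 4 volume changes 13.4 ± 0.349%. The features called lower held 20.01 ± 0.272% at 30% oxygen, between their early and late shares, and 16.1 ± 0.435% at 4 volume changes. In replicate 4 of the late group, the share of the features called higher was 13.7% with and 12.9% without the 12 nuclear r features among them.

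**Figure D3:**
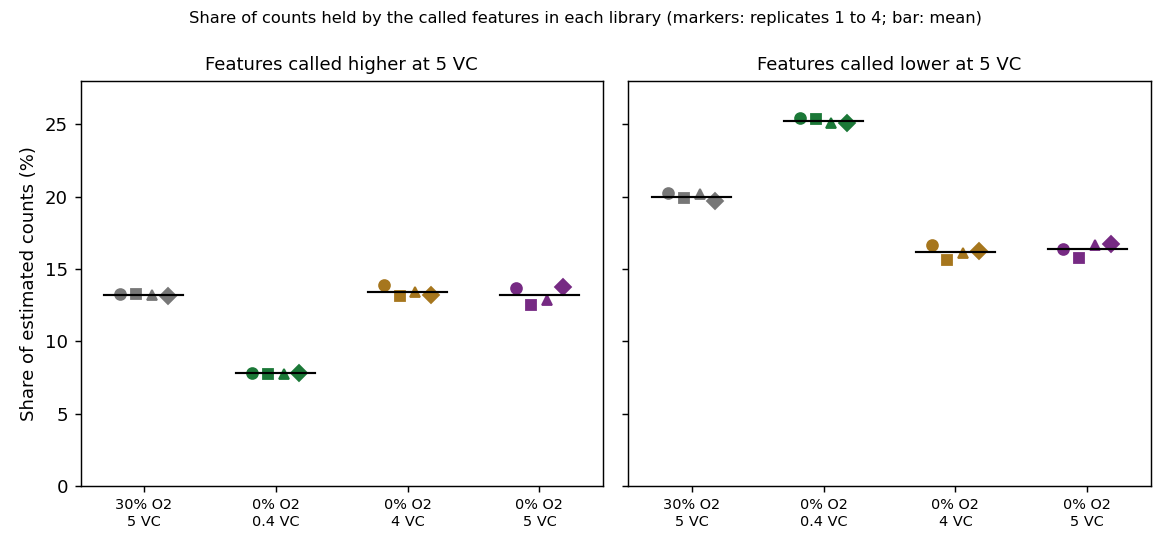
The y axis is the share of estimated counts, in percent, held by the 745 features called higher (left) and the 822 called lower (right), for every library of the 4 groups; bars are means. On the left the early libraries, at 7.74% to 7.81%, lie below all others, and on the right, at 25.1% to 25.4%, above all others. The early and late libraries chose these sets, so the place of the early libraries is not independent of the choice.

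Among features with changes of at least 2-fold, the gap between early and late levels is fixed by the choice. For the 97 coding features that rose, the median over features of the group mean was 16.5 TPM (a level per transcript length) in the early group and 48.3 TPM in the late group. It was 46.5 TPM at 30% oxygen and 50.4 TPM at 4 volume changes. For the 97 features that fell, the median was 186 TPM early and 65.2 TPM late, with 93.7 TPM at 30% oxygen and 63.5 TPM at 4 volume changes.

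The only other comparison in the series that shares no library with this one is 4 volume changes of 0% oxygen against 30% oxygen. There 24.6% of all 5452 features were higher and 25.4% lower (50% called). Of the 745 features that were higher in the late than in the early group, 304 (40.8%) were higher at 4 volume changes than at 30% oxygen, 154 (20.7%) were lower and 287 were not called. Of the 822 lower features, 343 (41.7%) were lower there, 214 (26%) were higher and 265 were not called. Their median log2 fold changes in that comparison were 0.16 and -0.13. Of the 97 features that fell at least 2-fold, only 20 (20.6%) were not called there, against 50% of all features, and they were divided between 42 lower and 35 higher. The 109 that rose at least 2-fold were divided between 41 higher and 28 lower. Features that moved in the same direction between early and late sampling thus stood on either side of their level at 30% oxygen.

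The largest changes differed from each other in this respect. The 12 coding features with the largest falls by fold change, all with groups that did not overlap, fell by 2.12 to 3.95 on the log2 scale. At 4 volume changes 11 of them were lower than at 30% oxygen and 1 was higher. The 12 that lost the most CPM were divided between 7 higher and 3 lower than at 30% oxygen, with 2 not called. Of these 12, 8 lay on chromosome 1, where 1656 of the 5353 tested nuclear coding features lie. Their summed level fell by 28071 CPM. The 12 largest rises by fold change, with log2 values of 2.11 to 2.86, were divided between 6 higher and 4 lower. The 12 that gained the most CPM, 13363 CPM together, were divided between 8 higher and 2 lower. None of the latter lay on chromosome 1.

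Direction went with abundance. Nuclear coding features were ranked by their mean TPM over the 8 libraries and cut into 5 equal parts. In the lowest part, with levels of 0.143 to 22.5 TPM, 198 of 1071 features were higher (18.5%) and 90 were lower (8.4%). In the highest part, with levels from 123 TPM upward, 121 of 1071 were higher (11.3%) and 231 were lower (21.6%). The parts between followed in order, with 149 higher and 124 lower, 142 and 156, and 123 and 219. Among changes of at least 2-fold, the lowest part held 38 rises and 7 falls, and the highest 22 rises and 51 falls. The median feature had 996.5 counts per library in the lowest part and 8908 in the highest. The part of depth in this pattern was not tested. On log2(TPM + 1) the lowest part held 184 higher and 38 lower, the highest 149 and 194, and the next to highest 146 and 144, so that its direction flipped. With upper-quartile factors the lowest and highest parts held 230 higher and 64 lower, and 151 and 216. The middle part also changed direction, to 142 higher and 86 lower on log2(TPM + 1) and to 187 and 128 with upper-quartile factors.

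**Figure D4:**
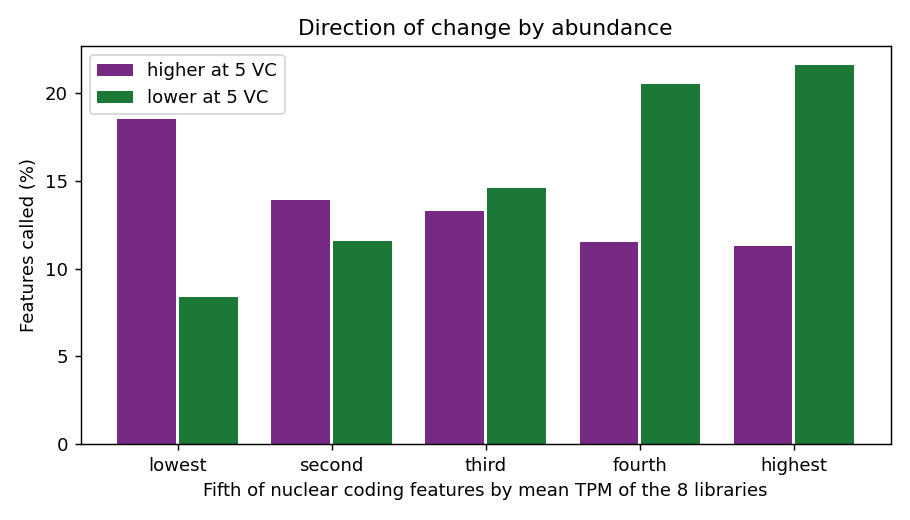
Bars give the percentage of nuclear coding features called higher (purple) or lower (green) in the late group, for 5 equal parts ranked by mean TPM over the 8 libraries. The percentage called higher goes from 18.5 in the lowest part to 11.3 in the highest, and the percentage called lower from 8.4 to 21.6.

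Calls were spread over the genome. On chromosomes 1 to 4, the share of tested coding features that were called ran from 27% to 31.2%, with slightly more lower than higher on each. By coding length, 18.8% of features of up to 600 nt were called, against 35.3% of those over 1200 and up to 1800 nt. The median feature of those classes had 989 and 2883 counts per library, and the part of counts in that difference was not tested. Features over 3000 nt were more often lower (72 of 356, 20.2%) than higher (33 of 356, 9.27%), where 15.3% of all nuclear coding features were lower and 13.7% higher. That difference depended on scaling, with 57 lower and 44 higher after upper-quartile scaling and 25 lower and 23 higher on log2(TPM + 1). Coding features with consecutive identifier numbers moved together more often than features at large. The next-numbered feature was also higher for 142 of 639 higher features (22.2%), where 13.9% of all next-numbered features were higher. For lower features these values were 174 of 714 (24.4%) and 15.4%. Consecutive numbers were taken from the identifiers, and positions on the chromosome are not analysed here. Since the strand setting of the counting is not given in the sources used here, reads of overlapping neighbours may be shared. Fractional counts, which arise where reads are split between similar features, occurred in 74 coding features. Of these 74, 22 were called, close to the 29% called among all tested nuclear coding features.

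Among the nuclear r features over 1000 nt, replicate 4 of the late group stood far above all other libraries. In the late group these features took 0.0143%, 0.0330% and 0.0102% of counts in replicates 1 to 3, and 0.850% in replicate 4 (Wilson 95% interval 0.847% to 0.852%, counting error only). The early libraries held 0.0114% to 0.0124% and, in replicate 3, 0.0208%. The late group without replicate 4 thus overlapped with the early group. The exact two-sided permutation test of this share gave p = 0.257 (0.309 adjusted over the 6 shares tested), where 4 libraries against 4 allow no p below 0.029.

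All 8 of these features were nevertheless called higher. In the 7 with early counts, the log2 fold change was 1.66 to 7.75. In none of them did all 4 late values lie above all 4 early values. A feature of 5506 nt on chromosome 1 had 0 CPM in all early libraries and 0, 1.62, 0.138 and 3183 CPM in the late ones. The 4 features of 1583 nt, 1 on each numbered chromosome, had identical counts in every library, so their reads cannot be told apart. They read 0.404, 1.05, 2.32 and 0.916 CPM early and 0.332, 10.8, 0.774 and 996 CPM late. A feature of 6508 nt on chromosome 4 had 105 to 198 CPM early and 122, 278, 88.5 and 1193 CPM late. In each of the 8, replicate 4 of the late group held the highest value. Without it, 1 of the 8 was called higher. limma-voom called 0, with 0 at an unadjusted p under 0.05, and DESeq2 called the 3 for which it gave an adjusted p. The total of that library, 39887634 counts, lay within the range of the others.

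Removing all r features before scaling left 1556 coding features called, 743 higher and 813 lower. Leaving out replicate 4 of the late group left 1561 calls in all, 724 higher and 837 lower, of which 1382 were among the 1567. The number of calls was thus about as large without that library or without those features.

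Short nuclear r features, of 71 to 120 nt, gave few counts, with a median over features of 3.5 per library. Of 145, 52 were tested, with a median of 12.4 counts. Of these 52, 4 were called higher and 1 lower (9.62%, against 28.7% of all features tested). The 4 had the same counts as each other in every library. None of the 5 was called without replicate 2 of the late group, or without replicate 1, 2 or 3 of the early group. The share of counts in short r features was 0.00418 ± 0.000628% early and 0.00467 ± 0.000541% late (SD, n = 4; exact permutation p = 0.257, adjusted 0.309).

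**Figure D5:**
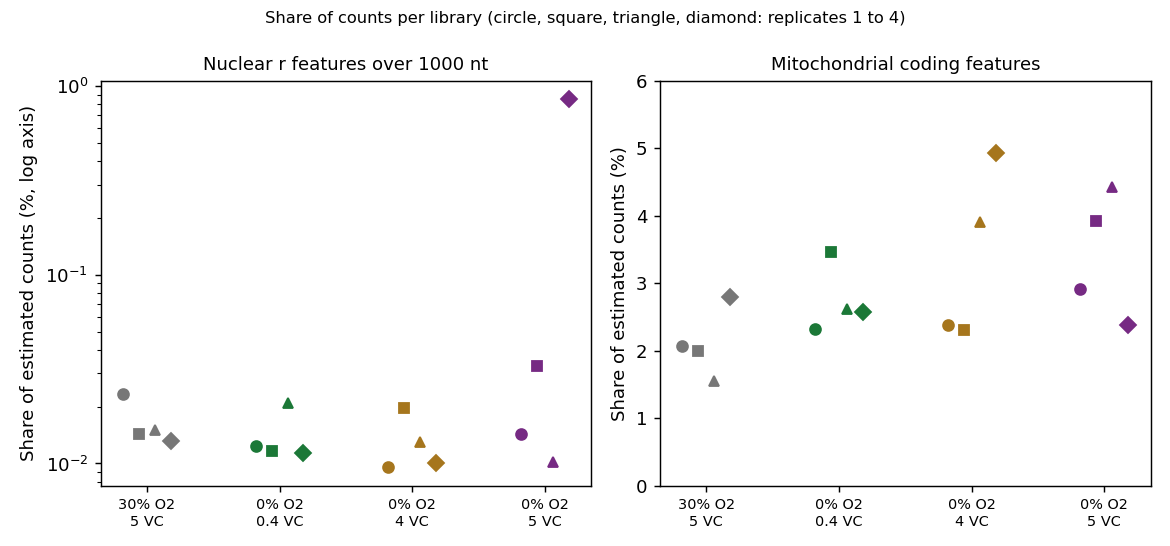
The y axes give the share of estimated counts, in percent, of nuclear r features over 1000 nt (left, log axis) and of mitochondrial coding features (right) for each of the 16 libraries. On the left, replicate 4 of the late group stands at 0.850% and every other library at or below 0.0330%; on the right the groups overlap.

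Mitochondrial coding features, which in yeasts include subunits of the respiratory chain complexes and of the ATP synthase, showed no call between early and late sampling. Of 16 features whose identifiers name the mitochondrial chromosome, 15 were tested and 0 were called by edgeR, with 1 at an unadjusted p under 0.05. Of all 5452 features, 28.7% were called, and 2151 had an unadjusted p under 0.05. DESeq2 and limma-voom also called 0, with 2 each at an unadjusted p under 0.05. In 7 the log2 fold change was positive and in 8 negative, with a median of -0.01 and a range of -0.58 to 0.74. The filter removed a feature of 687 nt, which had at most 0.0916 CPM in any of the 8 libraries.

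Their joint share of counts was 2.32%, 3.47%, 2.62% and 2.57% in the early libraries and 2.92%, 3.92%, 4.43% and 2.39% in the late ones. The groups overlapped: late replicate 4 was lower than 3 of the 4 early libraries. The exact permutation test gave p = 0.229 (0.309 adjusted over 6 shares). The most counted of them, of 1608 nt, had 8826 to 10624 CPM early and 10070.4, 15041, 13875 and 8969.8 CPM late. The smallest adjusted p in edgeR's test was 0.0725, for a feature of 750 nt that had 2185 to 3794 CPM early and 3628, 5503, 6116 and 3213 CPM late. Replicates 2 and 3 of the late group were high in both of these features, and replicates 1 and 4 lower. Without replicate 4 of the late group 1 mitochondrial coding feature was called, and without replicate 2 of the early group 2 were.

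Of 33 mitochondrial r features, of 66 to 4353 nt, 24 were tested and 1 was called, lower in the late group (4.17%, against 28.7% of all features). It was a feature of 71 nt with a low level, from 0.429 to 1.31 CPM early and from 0 to 0.387 CPM late. It was lost without replicate 4 of the early group, and 2 to 3 were called without replicate 1 or 3 of the late group or replicate 3 of the early group. The median log2 fold change of the 24 was -0.22. Their share of counts was 0.00966 ± 0.00212% early and 0.00970 ± 0.00232% late (SD, n = 4; exact permutation p = 0.971).

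The late libraries were less alike than the early ones. Over the 5353 nuclear coding features, the median SD of log2(CPM + 1) between replicates was 0.115 early and 0.161 late, and 0.145 late without replicate 4. The late SD was the larger in 3848 features (71.9%). In a principal component analysis of the 8 libraries, the first component held 53.4% of the variance and separated the groups. The second held 21.0%, and its far ends were replicate 4 of the late group at -22.8 and replicate 3 of that group at 16.6. The 10 most counted coding features of each library, which need not be the same ones, took 11.7 ± 0.235% of counts early and 10.7 ± 1.37% late (SD, n = 4). That difference of means was smaller than the late spread (exact permutation p = 0.171, adjusted 0.309).

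Far fewer features were called between 4 and 5 volume changes than between 0.4 and 4. A lack of calls does not show that levels were equal. Between 0.4 and 4 volume changes 1900 features were called (34.8%), and between 4 and 5 volume changes 35 (0.642%), 25 higher (0.459%) and 10 lower (0.183%). DESeq2 called 113 in the latter and limma 11 on log2(TPM + 1). These comparisons share libraries with the one described here, so their values are only set side by side. The log2 fold changes from 0.4 to 4 and from 0.4 to 5 volume changes were 2.96 and 2.86 for PP7435_Chr1-1341.t01. They were 0.88 and 0.97 for PP7435_Chr3-1213.t01. The feature with the largest fall, PP7435_Chr3-1699.t01, had -3.75 and -3.95, while PP7435_Chr1-1374.t01 had -1.26 and -1.38. None of the 4 was called between 4 and 5 volume changes, with adjusted p-values of 0.636 to 0.893 in edgeR's test.

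As a set, the calls with changes of at least 2-fold were kept more often than all calls together when single libraries were left out. They were chosen for large changes in the main fit, which favours this, so the difference only describes them. When each of the 8 libraries was left out in turn, 1069 of the 1567 features (68.2%) were called in the same direction in all 8 fits, and 190 of the 206 with changes of at least 2-fold (92.2%). Across these fits 0 features were called in the opposite direction. The 206 include the 8 long nuclear r features described above. Without replicate 4 of the late group, only 1 of these 8 was called higher.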

How the data were processed

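Total RNA of 16 chemostat libraries was depleted of ribosomal RNA and made into directional libraries, per the labels' protocols. The tools named, without roles, in the submitters' processing notes are kallisto 0.44.0, DESeq2 1.36.0, cutadapt 1.18, R 4.2.0, SAMtools 1.9 and Bowtie2 2.3.4.1. Not given in the sources used here are the strand setting, the build of the genome and its annotation. Per the file headers, the authors deposited an estimated count, a TPM value, and the length and effective length in nt (used as other, unscaled values) for each feature. Estimated counts are unscaled and were not whole, within 1e-06, in 1.87% to 2.82% of features per library.

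Counts were rounded and tested in edgeR 4.0.16 (R 4.3.3; filterByExpr, which removed 112 features, TMM factors, quasi-likelihood fit with a mean per group over all 16 libraries). P-values were adjusted by Benjamini-Hochberg over 5452 features. Standard errors came from the F statistic. Named features are coding and called, average 50 counts or more, and have groups that do not overlap. In each direction, that of largest fold change and that of largest CPM difference were named, because 0 identifiers matched the 5040 genes of the reference table (assembly ASM2700v1). For that reason 10 planned pathway lists were not used. Members, lists and this rule were chosen with earlier results of these data known. Shares were compared by two-sided exact permutation tests. No 2 replicates agreed within sampling noise (lowest chi-square over its degrees of freedom, 19.1). Alternatives were RLE and upper-quartile factors, other filters, DESeq2 1.42.0, limma 3.58.1 (voom, log2 of TPM plus 1 or 0.1), the 8 libraries alone, the replicate number as a block, removal of r features, and leaving out each library. The fit was tested on simulated data.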

Additional observations from a re-analysis of the deposited data

Results flagged for a closer look

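Of 22 sets of 4 libraries, 2 had a library that stood far from its group. The sets were 6 shares of counts, the total count and the 4 named features, each in the early and the late group. At 1 in 20, chance would flag about 1.1 of 22 independent sets, but these sets come from the same libraries. Both flags are of the same share, and that of replicate 4 in the late group was known beforehand. The number of flags is therefore not read against chance. The share of nuclear r features over 1000 nt was 0.850% in replicate 4 of the late group, against 0.0102% to 0.0330% in the others. The same share was 0.0208% in replicate 3 of the early group, against 0.0114% to 0.0124% in the others.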

How the results depend on the processing

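With each of the 8 libraries left out in turn, 1265 to 1561 features were called, 579 to 724 higher and 686 to 837 lower. The 4 named features kept their direction and their call under every alternative run, with adjusted p-values of at most 0.0038 (edgeR, DESeq2 or limma). They were chosen for their call and large change in the main fit, so these values describe only them. Fewer features were lower on TPM values, 521 with a pseudocount of 1 and 521 with 0.1, against 822. The deviations of same-numbered libraries from their group means correlated at 0.26, 0.18, -0.34 and 0.23 for replicates 1 to 4. Of the 4 late libraries, 2 correlated best with their own number. With 4 libraries per group, these values cannot show whether same-numbered libraries came from the same reactor. With the replicate number as a block, 1532 features were called, 706 higher and 826 lower. The 8 libraries alone with the block, chosen after seeing the data, gave 1687. For the other contrasts, calls between 4 and 5 volume changes numbered 113 with DESeq2, 11 on log2(TPM + 1) and 11 on log2(TPM + 0.1), against 35.

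Calls of small classes moved most, and the cause was not tested. Of the long nuclear r features 8 were called higher, but 3 with DESeq2, which gave no adjusted p for the others, 0 with limma-voom and on either TPM scale, 5 in the 8 libraries alone, 1 with the block, 0 in the 8 libraries with the block, and 1 to 8 with a library left out. Of the short ones 5 were called, but 9 with no filter, 9 with DESeq2, 8 on either TPM scale, 1 at a mean of at least 50 counts, 1 with limma-voom, 1 in the 8 libraries alone with or without the block, 0 with the block in all libraries, and 0 to 4 with a library left out. Mitochondrial coding features called numbered 0, but 2 in the 8 libraries alone, 3 with the block in these, and 0 to 2 with a library left out. Mitochondrial r features called numbered 1, but 2 with upper-quartile factors, 2 with no filter, 3 with DESeq2, 0 at a mean of at least 50 counts, 0 in the 8 libraries with the block, and 0 to 3 with a library left out. Short nuclear r features had a median of 3.5 counts per library, and 93 of the 145 were removed by the filter.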
